A study of Mus musculus with 9 samples.

Results

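The endoplasmic reticulum folding and degradation genes are 36 named genes whose proteins fold new secretory and membrane proteins or remove the ones that fail to fold. They were picked by symbol from a list and make up 36 of the 30128 genes in the deposited table, and all 36 were found there. The data were RPKM values (reads scaled for gene length and sequencing depth) from 9 mouse left ventricle RNA libraries, 3 to a group. Control animals were wild type, and their labels name no virus. Both other groups were db/db, a genotype with a mutation in the leptin receptor gene that makes mice obese and diabetic. One db/db group (null virus) had been given an empty adeno-associated virus of serotype 9, and the other (USP28 virus) that serotype with USP28, an enzyme that removes ubiquitin from proteins. Per the series' design text, a troponin T (cTnT) promoter, used to limit a transgene to heart muscle cells, drove USP28, while the libraries are of ventricular tissue with all its cells. Age, sex, strain and the time after injection are not given in the labels, nor whether each library is from its own animal, and the p-values therefore speak only of the spread among these samples, which may be technical.

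Proteins that enter the endoplasmic reticulum are threaded through a channel, trimmed, given sugar chains and disulfide bonds, and held by chaperones until they fold. Unfolded protein activates 3 membrane sensors, IRE1 (gene Ern1), ATF6 and PERK, which raise the transcription of chaperones and degradation genes, the unfolded protein response. Proteins that never fold are passed back to the cytosol through a ubiquitin ligase complex and destroyed, a route called endoplasmic reticulum associated degradation. In heart muscle the same membrane system also forms the calcium store of the sarcoplasmic reticulum.

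ATF6 and XBP1 act through the endoplasmic reticulum stress element, ERSE, which is CCAAT and CCACG with any 9 bases between them. A shorter form, ERSE-II, is ATTGG and CCACG with any 1 base between them. RefSeq promoter windows of GRCm38.p6, from 250 bases before to 50 bases after a start site, were held for 31 of the 36 genes and searched on both strands. ERSE was found in the windows of 9 of these 31 genes (29%), and in those of 0.14% of all 27025 genes with windows. ERSE-II was found for 2 of the 31 (6.45%), Herpud1 and Dnajb11, and for 0.044% of all genes. No gene held both motifs. The match for Dnajb11 lay after the start site and is not printed. ERSE matches are shown to let the shared letters be seen, each with 10 bases on either side, written 5′ to 3′ in the direction of the motif, with the fixed letters of the motif in capitals and coordinates on GRCm38.p6.
Hspa5 (chr2:34772015-34772053, plus strand): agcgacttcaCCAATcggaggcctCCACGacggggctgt
Hsp90b1, farther match (chr10:86705628-86705666, minus strand): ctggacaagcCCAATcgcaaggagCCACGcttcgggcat
Hsp90b1, nearer match (chr10:86705523-86705561, plus strand): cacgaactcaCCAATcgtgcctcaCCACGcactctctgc
Dnajc3 (chr14:118937817-118937855, plus strand): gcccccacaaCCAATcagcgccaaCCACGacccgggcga
Creld2 (chr15:88819510-88819548, minus strand): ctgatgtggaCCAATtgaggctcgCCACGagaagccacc
Calr (chr8:84847065-84847103, plus strand): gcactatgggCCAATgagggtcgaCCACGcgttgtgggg
Canx (chr11:50325790-50325828, minus strand): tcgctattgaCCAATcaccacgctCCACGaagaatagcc
Pdia6 (chr12:17266481-17266519, plus strand): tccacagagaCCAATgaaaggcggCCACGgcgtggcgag
Syvn1 (chr19:6046522-6046560, plus strand): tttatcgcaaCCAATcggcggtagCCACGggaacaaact
Derl3 (chr10:75893232-75893270, minus strand): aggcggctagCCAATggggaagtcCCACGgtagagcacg
Herpud1, ERSE-II (chr8:94386367-94386397, plus strand): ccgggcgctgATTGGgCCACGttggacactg

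Hspa5 encodes BiP, the main chaperone of the compartment, and Herpud1 encodes a membrane protein of the degradation complex, so the 250 bases before both start sites are given in full, on the strand of the gene, with the fixed letters of ERSE or ERSE-II in capitals.
Hspa5 (chr2:34771840-34772089, plus strand): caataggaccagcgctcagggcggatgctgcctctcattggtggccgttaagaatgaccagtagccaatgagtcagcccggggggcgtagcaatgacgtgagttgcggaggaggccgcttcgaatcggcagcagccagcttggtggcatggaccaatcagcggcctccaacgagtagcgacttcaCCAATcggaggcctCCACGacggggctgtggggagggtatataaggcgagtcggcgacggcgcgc
Herpud1 (chr8:94386179-94386428, plus strand): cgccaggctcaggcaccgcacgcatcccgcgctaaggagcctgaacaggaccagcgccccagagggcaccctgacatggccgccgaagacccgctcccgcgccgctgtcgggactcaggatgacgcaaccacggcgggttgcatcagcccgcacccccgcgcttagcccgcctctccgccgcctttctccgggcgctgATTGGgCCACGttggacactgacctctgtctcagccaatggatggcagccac
A match describes letters in a window and does not show that a factor binds there. A search for another XBP1 motif, UPRE (TGACGTGG), found 1 of the 31 genes (3.23%), Txndc5, against 0.71% of all genes. The ATF4 motif CARE (TGATG and AAT with any 1 base between them) was found for 0 of the 31 and for 1.1% of all genes.

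**Figure D1:**
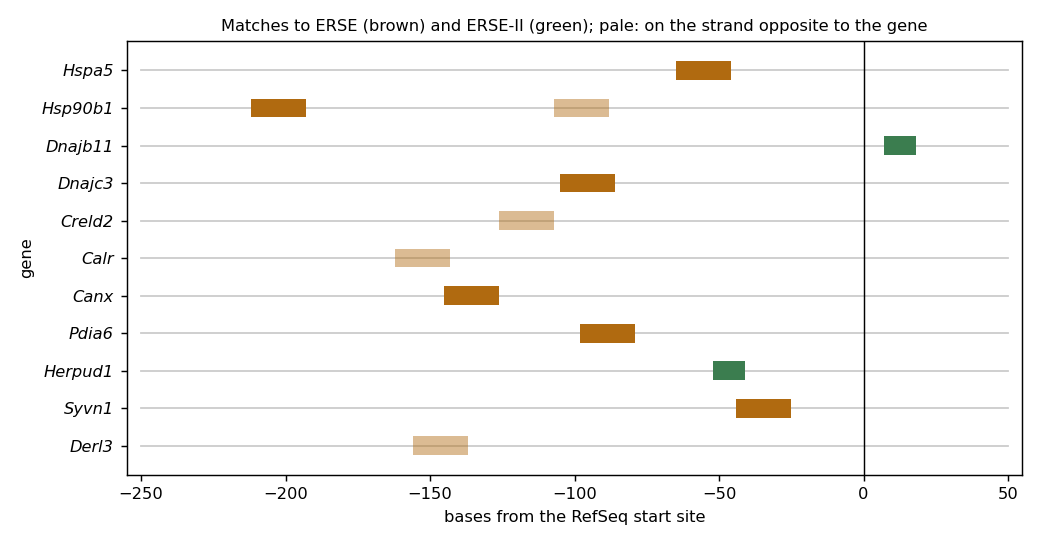
Positions of ERSE (brown) and ERSE-II (green) matches in the promoter windows of the 11 genes that hold one. The horizontal axis is the distance in bases from the RefSeq start site, at 0; each row is 1 gene, and pale bars are matches on the strand opposite to the gene. All matches but that of Dnajb11 lie before the start site, Syvn1 nearest, beginning 44 bases before it.

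Depth recovered from the values was 35970332 to 56497662 reads per library. A count of 0 reads allows up to 3 reads, which for a gene of 1 kilobase is 0.0531 to 0.0834 RPKM, a limit for counting error alone. The 35 tested genes had between 30 and 66830 reads in a library, and all 36 had whole read counts behind every value. Cardiomyocyte markers such as Myh6 and Tnnt2 summed to 25329 to 38741 scaled RPKM over the 9 libraries, against 0 to 0.332 for 5 adipocyte markers. Myl7, an atrial myosin light chain, was at 90.7 scaled RPKM in USP28-virus replicate 1 and at 0 in both other libraries of that group. The 4 atrial markers, Myl7, Myl4, Sln and Nppa, summed to 1444 in that library, mostly Nppa, against 147.6 and 171.9 in replicates 2 and 3. Their sum was 127 to 200 in control and 80.2 to 340 with null virus. The part of this atrial signal in the results was not tested. Usp28 itself was at 12.5, 13.3 and 13.7 scaled RPKM in control, 10.1, 7.57 and 7.78 with null virus and 9.89, 11.3 and 11.2 with USP28 virus. The USP28-virus and null-virus values overlapped (log2 0.36, SE 0.12, adjusted p = 0.2 in limma), so this gene does not by itself mark the USP28-virus libraries, and whether its row counts the vector's transcript is not known. Null-virus replicate 1 stood apart from its group: over all tested genes its mean absolute departure from the group mean was 0.334 on the log2 scale, where the 8 remaining libraries had 0.144 to 0.214. Control replicate 3 stood apart for these 36 genes, though not over all genes, as described further on. Values without them are given where a call or a count changes.

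The comparison of null virus with control addresses what the db/db genotype and the empty virus together go with in the ventricle. No group had only one of them. The degradation genes Herpud1 and Os9 were higher in null-virus hearts, at 167% and 129% of the control mean. Another 7 genes were lower: the chaperone gene Sdf2l1 (34.3%), the isomerases Pdia4 (53.5%) and Txndc5 (66.3%), the degradation genes Sel1l (54%) and Edem3 (64.6%), Uggt1 (68.2%) and Ssr1 (75.2%). The BiP gene Hspa5 and the 4 sensor genes did not pass the test. In limma, with Benjamini-Hochberg adjustment over 14104 genes and a threshold of 0.05, 9 of 35 tested members passed, 25.7% against 22.4% of all genes tested, so their number was close to the background. Of these 2 were higher (5.71%, against 10.4% of all genes) and 7 lower (20%, against 12%). The median log2 difference was -0.17 over the members and 0.01 over all genes, and without control replicate 3 it was -0.03 over the members and 0.01 over all genes (-0.08 over the members without null-virus replicate 1 as well). Control and null-virus values were apart for 14 of the 35 (40%), against 41.5% of all genes. In whole tissue, fewer cells of a type and less RNA per cell cannot be told apart.

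Herpud1 (chromosome 8, 94386438 to 94395377) had the largest rise of the 35 members. In control replicates 1, 2 and 3 it stood at 19.8, 15.6 and 19.9 scaled RPKM, then at 24.6, 34.8 and 33.1 with null virus, and 18.2, 15.6 and 20.2 with USP28 virus. All 3 null-virus libraries were above all 6 others, replicate 1 least so. Herpud1 rose between control (18.4 ± 2.44, SD, n = 3) and null virus (30.8 ± 5.5) by 0.73 on the log2 scale (SE 0.17, adjusted p = 0.016 in limma). Without null-virus replicate 1 the rise was 0.89 (adjusted p = 0.0023). With library totals in place of the scaling it was 0.70 and missed the threshold (adjusted p = 0.054), as it did without control replicate 2.

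Os9, a lectin that reads the sugar tag of proteins bound for degradation (chromosome 10, 127094259 to 127121160), was at 28.5, 26.5 and 24.9 scaled RPKM in control, 33.2, 33.7 and 35.8 with null virus and 34.7, 34.5 and 32.3 with USP28 virus. Both db/db groups lay wholly above control. Os9 rose by 0.36 with null virus (SE 0.09, adjusted p = 0.021). With library totals alone its difference was 0.34 (adjusted p = 0.1), and without control replicate 3 it was 0.31 (adjusted p = 0.091). Os9 also missed the threshold without control replicate 2.

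Sel1l, the adaptor that holds the degradation ligase Syvn1 in its complex (chromosome 12, 91806043 to 91849157), was at 4.9, 5.33 and 6.11 in control, 2.35, 3.03 and 3.43 with null virus and 3.41, 4.25 and 3.38 with USP28 virus. Every control library was above every db/db library. Sel1l fell by 0.88 on the log2 scale with null virus (SE 0.16, adjusted p = 0.0071), by 0.73 without null-virus replicate 1 and by 0.80 without control replicate 3, past the threshold in all 9 fits that left out 1 library. Edem3, a mannosidase-like protein that trims sugars of misfolded proteins (chromosome 1, 151755371 to 151822051), was at 2.64, 2.54 and 2.7 in control, 1.25, 1.89 and 1.95 with null virus and 1.78, 1.93 and 1.77 with USP28 virus. It fell by 0.63 with null virus (SE 0.16, adjusted p = 0.026). Edem3 fell by 0.43 without null-virus replicate 1, the lowest library (adjusted p = 0.0096), and with library totals alone it missed the threshold (adjusted p = 0.076). Its call was also lost in the 3 fits that left out 1 control library.

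The other 5 tested degradation genes did not pass in this comparison. Syvn1, the ubiquitin ligase itself, had a log2 difference of -0.43 (adjusted p = 0.21), with 0.929, 1.16 and 1.61 in control against 0.606, 1.07 and 0.999. Edem1, Edem2, Derl1 and Derl2 had log2 differences between -0.04 and 0.38. Derl3, a derlin of the retrotranslocation channel, had 2 to 13 reads per library and was left out by the filter on low values. Its scaled RPKM was 0.0268, 0.0352 and 0.044 in control, 0.0996, 0.169 and 0.184 with null virus and 0.164, 0.235 and 0.0609 with USP28 virus, so the control libraries were the 3 lowest, at counts too small for a reliable fold.

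Among the chaperones, 1 of 9 was lower with null virus and 0 were higher (11.1% called, against 22.4% of all genes). Sdf2l1, a luminal protein found in chaperone complexes (chromosome 16, 17130138 to 17132383), was at 1.55, 2.67 and 5.13 scaled RPKM in control, 1.35, 0.771 and 1.09 with null virus and 0.659, 0.655 and 0.642 with USP28 virus. The control libraries lay far apart, and each was above all 6 db/db libraries. Sdf2l1 fell by 1.33 with null virus (SE 0.37, adjusted p = 0.034). It missed the threshold in 7 of the 9 fits that left out 1 library. Over the 9 fits its difference ran from -1.74, without control replicate 1, to -0.90, without control replicate 3.

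Hspa5 was at 89.4, 102 and 161 in control, 103, 80.8 and 80 with null virus and 82.8, 93.2 and 92.7 with USP28 virus. The control and null-virus values overlapped, and the log2 difference of -0.38 (SE 0.21) had an adjusted p of 0.21, and was -0.13 without control replicate 3 (adjusted p = 0.58). Hsp90b1, the GRP94 chaperone, had a log2 difference of -0.50 (adjusted p = 0.071), and Hyou1, which exchanges the nucleotide of BiP, one of -0.65 (adjusted p = 0.11). Hsp90b1 passed with library totals alone (adjusted p = 0.029), with limma voom on recovered reads (adjusted p = 0.044) and without null-virus replicate 1 (log2 -0.63, adjusted p = 0.017). A gene on the opposite strand, 1810014B01Rik, covers 10.29% of the exon bases of Hsp90b1, and the small genes Gm15344 and Gm25745 on the same strand cover 2.083% and 3.299%. No source used here gives the strand setting of the counting. The co-chaperones Dnajb9, Dnajb11 and Dnajc3 had log2 differences of -0.17, -0.04 and 0.28, and none passed. Neither did the stress-induced luminal proteins Manf (-0.39) and Creld2 (0.21).

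Of 6 disulfide exchange genes 2 were lower and 0 higher (33.3% called, against 22.4% of all genes). Pdia4, a protein disulfide isomerase (chromosome 6, 47796141 to 47813430), was at 23.2, 26.8 and 43.5 in control, 16.6, 17.7 and 15.8 with null virus and 17.3, 18.9 and 15.7 with USP28 virus. All db/db libraries were below all control libraries, of which replicate 3 was the farthest. Pdia4 fell by 0.85 (SE 0.21, adjusted p = 0.022), and by 0.58 without control replicate 3 (adjusted p = 0.028). Txndc5, another thioredoxin-domain isomerase (chromosome 13, 38500273 to 38528824), was at 3.31, 3.52 and 3.79 in control, 2.2, 2.35 and 2.49 with null virus and 3.01, 2.86 and 2.75 with USP28 virus. Its 3 groups did not overlap, with USP28 virus in between. Txndc5 fell by 0.57 with null virus (SE 0.10, adjusted p = 0.0054), the smallest adjusted p of the 35 members in this comparison. P4hb, which is both an isomerase and a subunit of collagen prolyl hydroxylase, was at 44.8 ± 1.49 in control and 44.1 ± 1.84 with null virus (log2 -0.02, SE 0.08). Pdia3 and Erp44 did not pass either (log2 -0.28 and 0.02). Pdia6 had a log2 difference of -0.45 (adjusted p = 0.062). Pdia6 passed with library totals alone (adjusted p = 0.041), with limma voom (adjusted p = 0.042) and without control replicate 1 (log2 -0.59, adjusted p = 0.036) or null-virus replicate 1 (log2 -0.53, adjusted p = 0.029). With null-virus replicate 1 left out, Pdia3 also met the threshold, at a log2 difference of -0.48 (adjusted p = 0.044).

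The lectin cycle holds sugar-tagged proteins until they fold. Uggt1, the enzyme that re-tags unfolded glycoproteins (chromosome 1, 36140027 to 36244720), was at 2.37, 2.61 and 2.7 in control, 1.38, 2.01 and 1.84 with null virus and 1.78, 2.01 and 1.7 with USP28 virus. It fell by 0.54 with null virus (SE 0.15, adjusted p = 0.032), and by 0.39 without null-virus replicate 1 (adjusted p = 0.029). Its call was lost in 5 of the 9 fits that left out 1 library, and with library totals alone (adjusted p = 0.09). The lectins themselves, Calr (log2 -0.38, adjusted p = 0.094) and Canx (log2 -0.29, adjusted p = 0.13), did not pass, while without null-virus replicate 1 Calr did (log2 -0.46, adjusted p = 0.034). Of the 4 genes of entry, Ssr1, a subunit of the translocon-associated complex (chromosome 13, 37971401 to 37994190), was lower, at 4.16, 3.94 and 4.28 in control, 3.18, 3 and 3.13 with null virus and 3.46, 3.89 and 3.4 with USP28 virus. Ssr1 fell by 0.40 (SE 0.09, adjusted p = 0.017). Its call was lost without control replicate 3 and without null-virus replicate 2. Sec61a1 and Sec61b, subunits of the channel, and Spcs1, of the signal peptidase, had log2 differences of 0.29, 0.28 and 0.26 that did not pass. Exons on the opposite strand cover 17.85% of the exon bases of Spcs1 (Glt8d1) and 8.155% of those of Sec61a1 (Gm44170).

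The 4 sensor and transducer genes did not pass in limma in any of the 3 comparisons. In each, 1 of the 4 had an unadjusted p under 0.05. Of all genes, 38% had one in null virus against control. In USP28 virus against null virus 16.7% did, and in USP28 virus against control 28.3%. Limma voom on recovered reads called Ern1 lower in null virus against control (log2 -0.62, adjusted p = 0.04). Ern1 also passed in that comparison without null-virus replicate 3 (log2 -0.80, adjusted p = 0.017). Ern1 was at 1.1, 1.29 and 1.14 scaled RPKM in control, 0.574, 0.686 and 1.04 with null virus and 0.987, 0.843 and 1.13 with USP28 virus (log2 -0.59, adjusted p = 0.065 for null virus against control). Xbp1, whose mRNA IRE1 splices, was at 9.89, 13.1 and 16.6 in control, 14.6, 15.3 and 14.8 with null virus and 11.1, 13.8 and 12 with USP28 virus. The table sums all transcripts of a gene, so spliced and unspliced Xbp1 were not separated. Atf6 (chromosome 1, 170704674 to 170867771) was at 6.77, 7.38 and 7.55 in control, 5.5, 8.47 and 8.62 with null virus and 4.83, 5.19 and 5.42 with USP28 virus. The USP28-virus libraries were the 3 lowest of all 9 for Atf6, just under null-virus replicate 1. Atf6b, its weaker relative, had log2 differences of 0.14, 0.05 and 0.19 in the 3 comparisons.

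**Figure D2:**
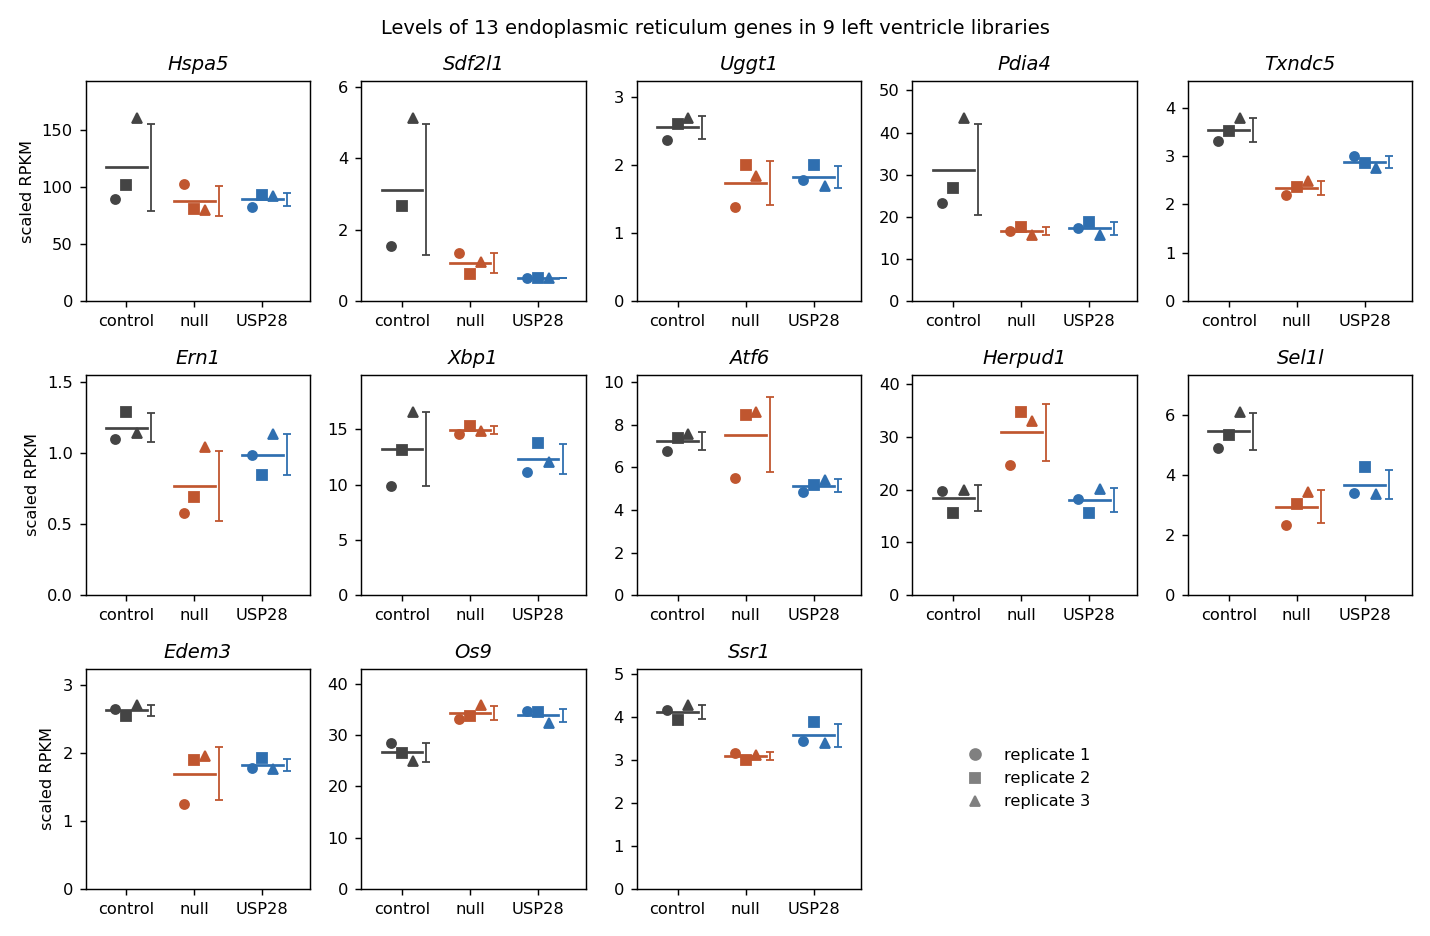
Scaled RPKM (vertical axis, from 0) of the 9 genes that passed in at least 1 comparison and of Hspa5, Ern1, Xbp1 and Atf6, in control, null-virus and USP28-virus libraries. Points are single libraries (circle, square and triangle for replicates 1, 2 and 3), horizontal lines are group means and bars beside them are 1 SD (n = 3). Herpud1 is highest in the null-virus libraries (24.6 to 34.8), and control replicate 3 is the highest point for Hspa5, Sdf2l1, Uggt1, Pdia4, Txndc5, Xbp1, Sel1l, Edem3 and Ssr1.

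One control library was high for many of these genes. Control replicate 3 had the highest value of all 9 libraries for 20 of the 36 members, or 57.1% of the 35 tested, while it was highest for 11.1% of all genes tested. Its summed level over the members was 1269 scaled RPKM, against 898 and 941 in control replicates 1 and 2 and 791 to 915 in the db/db libraries. The most abundant members, Hsp90b1 (325), Calr (280) and Hspa5 (161), made up most of the sum in control replicate 3. Its value was over 1.2 times the mean of the 2 other control libraries for 16 of 35 members (45.7%) and for 11.2% of all genes. Manf was at 8.5, 12.3 and 26.3 in control replicates 1, 2 and 3, Creld2 at 6.91, 13.3 and 19.8, and Hyou1 at 3.17, 4.63 and 7.57. Over all genes the library did not stand apart, with a mean absolute departure from its group of 0.145 on the log2 scale. Red blood cell markers summed to 138, 525 and 267 in control replicates 1, 2 and 3, and their part in the result was not tested.

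Set beside the promoters, the ratio of control replicate 3 to the other control libraries was as follows. For the 10 tested genes with ERSE or ERSE-II in their window, it had a median of 1.42 and ran from 1.12 to 1.96. For the 20 genes with neither, the median was 1.10 and the range 0.79 to 2.43, with Sdf2l1 and Pdia4 (1.74) high among them. In the 6 db/db libraries Hspa5 was at 80 to 103 scaled RPKM and Manf at 8.63 to 14.9, both highest in null-virus replicate 1. These are descriptions of 1 library and carry no test. In null virus against control, 1 of the 10 genes with ERSE or ERSE-II was called higher and 0 lower. Of the 20 with neither, 1 was called higher and 7 lower, where 10.4% and 12% of all genes were. Without control replicate 3, null virus against control had 2 members higher and 3 lower (14.3% called, against 10.5% of all genes): Herpud1 (log2 0.79) and Dnajc3 (log2 0.45, adjusted p = 0.043) higher, and Pdia4, Sel1l and Txndc5 lower. Without null-virus replicate 1 there were 2 higher and 11 lower (37.1%, against 31.9% of all genes), the lower ones including Hsp90b1, Pdia3, Pdia6 and Calr. Without both libraries there were 3 higher and 10 lower (37.1%, against 23.6% of all genes), and those 4 genes had log2 differences of -0.46, -0.32, -0.37 and -0.32.

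**Figure D3:**
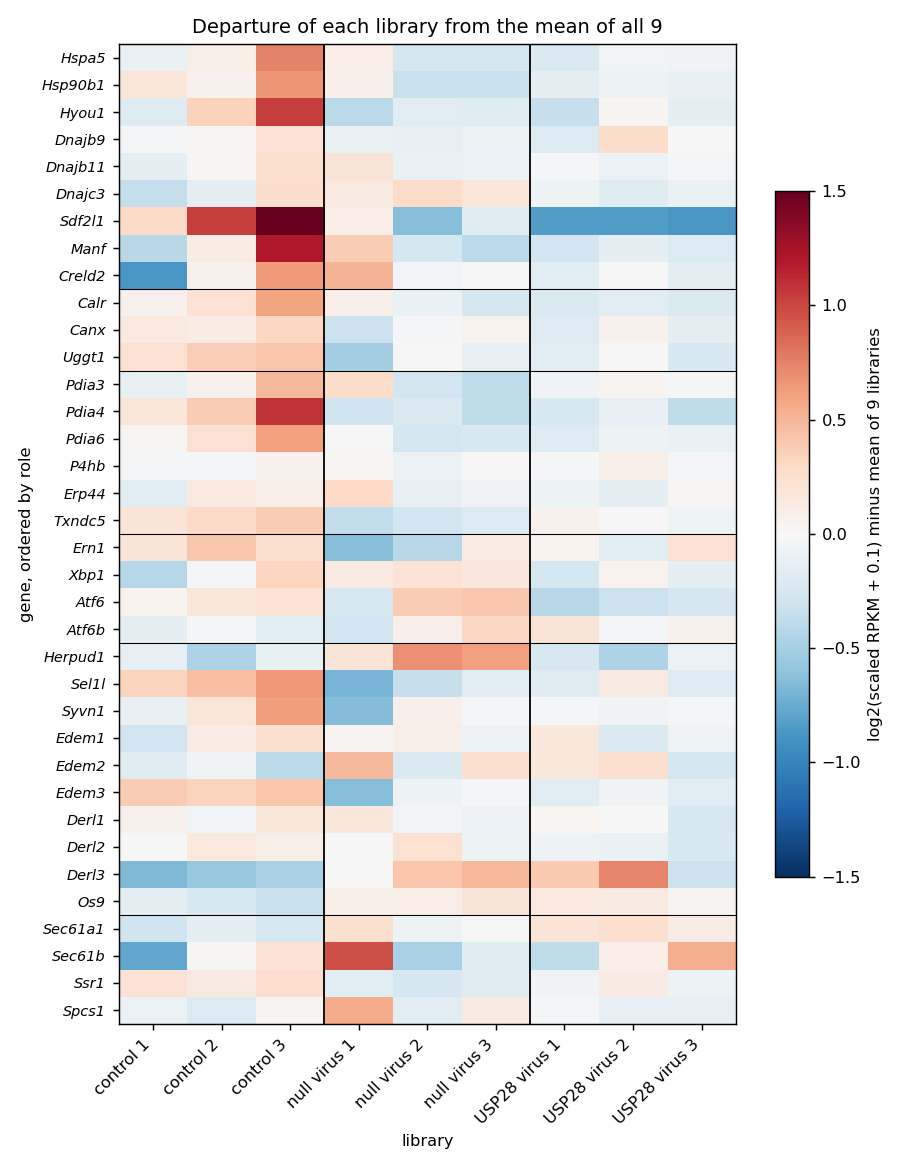
Departure of each library (columns) from the mean of all 9 libraries for the 36 genes (rows, ordered by role), in log2(scaled RPKM + 0.1), red above and blue below the mean, with the colour scale ending at 1.5. The column of control replicate 3 is red in most chaperone and disulfide exchange rows, and Herpud1 is red in the 3 null-virus columns.

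USP28 virus against null virus is a comparison between db/db groups whose labels differ in the vector alone. No member passed in limma: 0 of 35 at an adjusted p under 0.05, where 0.553% of all genes (78) passed, and 3 of 35 (Herpud1, Atf6 and Txndc5) had an unadjusted p under 0.05 (8.57%, against 16.7% of all genes). Of those 78 genes 61.5% were higher, a share that was 87.1% of 31 with library totals alone. The median log2 difference was 0.01 over the members and 0.01 over all genes. Herpud1 was nearest to the threshold, with a log2 difference of -0.76 (SE 0.17, adjusted p = 0.084), and its USP28-virus libraries (18 ± 2.27) all lay below its null-virus libraries. Limma voom on the recovered reads called it lower (log2 -0.77, adjusted p = 0.041), the only member that it called. Atf6 had a log2 difference of -0.51 (SE 0.16, adjusted p = 0.17).

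Null-virus replicate 1 had the lowest null-virus value of both genes. Without it Herpud1 fell by 0.93 (adjusted p = 0.009) and Atf6 by 0.73 (adjusted p = 0.0038) with USP28 virus, and these were the 2 members called (5.71%, against 6.77% of all genes in that fit). In the other 8 fits that left out 1 library, 0 members passed in limma, where at most 0.136% of all genes passed. In these fits 2 to 5 members had an unadjusted p under 0.05 (5.71% to 14.3%, against 11.1% to 19.9% of all genes). No null-virus value overlapped the USP28-virus values for 8 of the 35 members (22.9%), against 23.4% of all genes. Dnajc3 (log2 -0.32, adjusted p = 0.31), Xbp1 (-0.28, 0.42), Derl2 (-0.19, 0.47) and Sdf2l1 (-0.61, 0.42) were lower in every USP28-virus library than in any null-virus library, and Txndc5 (0.28, 0.21) and Ssr1 (0.20, 0.32) higher. The differences of Hspa5 (0.04, SE 0.21), Hsp90b1 (0.08, SE 0.17) and Calr (-0.11, SE 0.15) were within their SE.

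The comparison of USP28 virus with control shares libraries with both others, so its values are only set beside theirs. Sdf2l1 and Pdia4 were lower than in wild type, at 20.9% and 55.4% of the control mean, and Os9 was higher, at 127%. Sdf2l1 fell by 1.94 (SE 0.37, adjusted p = 0.015), Pdia4 by 0.80 (SE 0.21, adjusted p = 0.039), and Os9 rose by 0.35 (SE 0.09, adjusted p = 0.036). These 3 of 35 are 8.57%, against 11.9% of all genes tested. Values of the groups were apart for 15 of the 35 (42.9%), against 45.8% of all genes. By direction the calls were 1 higher (5.69% of all genes) and 2 lower (6.24% of all genes). Over all genes 47.7% of the calls were higher, and 66.4% with library totals alone. Herpud1 was at 97.6% of the control mean in USP28-virus hearts (log2 -0.03, SE 0.17, adjusted p = 0.92), a difference whose sign turned to 0.03 with library totals alone.

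The number of members that passed moved with single libraries. Without null-virus replicate 1, which belongs to neither group but enters the shared estimate of the spread, 2 members were higher and 9 lower, 31.4% against 29.4% of all genes. Sel1l (log2 -0.56, adjusted p = 0.011), Edem3 (-0.51, 0.0035), Uggt1 (-0.47, 0.0095), Atf6 (-0.49, 0.0028), Txndc5 (-0.30, 0.028), Calr (-0.50, 0.018) and Canx (-0.28, 0.038) were then lower as well, and Sec61a1 (0.40, 0.019) higher. Without control replicate 3, Sdf2l1 alone passed (log2 -1.51, adjusted p = 0.033), 2.86% of the members against 3.18% of all genes. In the 9 fits that left out 1 library, Sdf2l1 lost its call in 3, and Pdia4 and Os9 each in 7. Without control replicate 2, or USP28-virus replicate 1 or 3, 0 members passed in limma, against 3.49%, 2.64% and 4.17% of all genes. In these limma fits 12, 9 and 10 of the 35 had an unadjusted p under 0.05. Those were 34.3%, 25.7% and 28.6% of the members, against 22.1%, 20.4% and 23.2% of all genes.

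**Figure D4:**
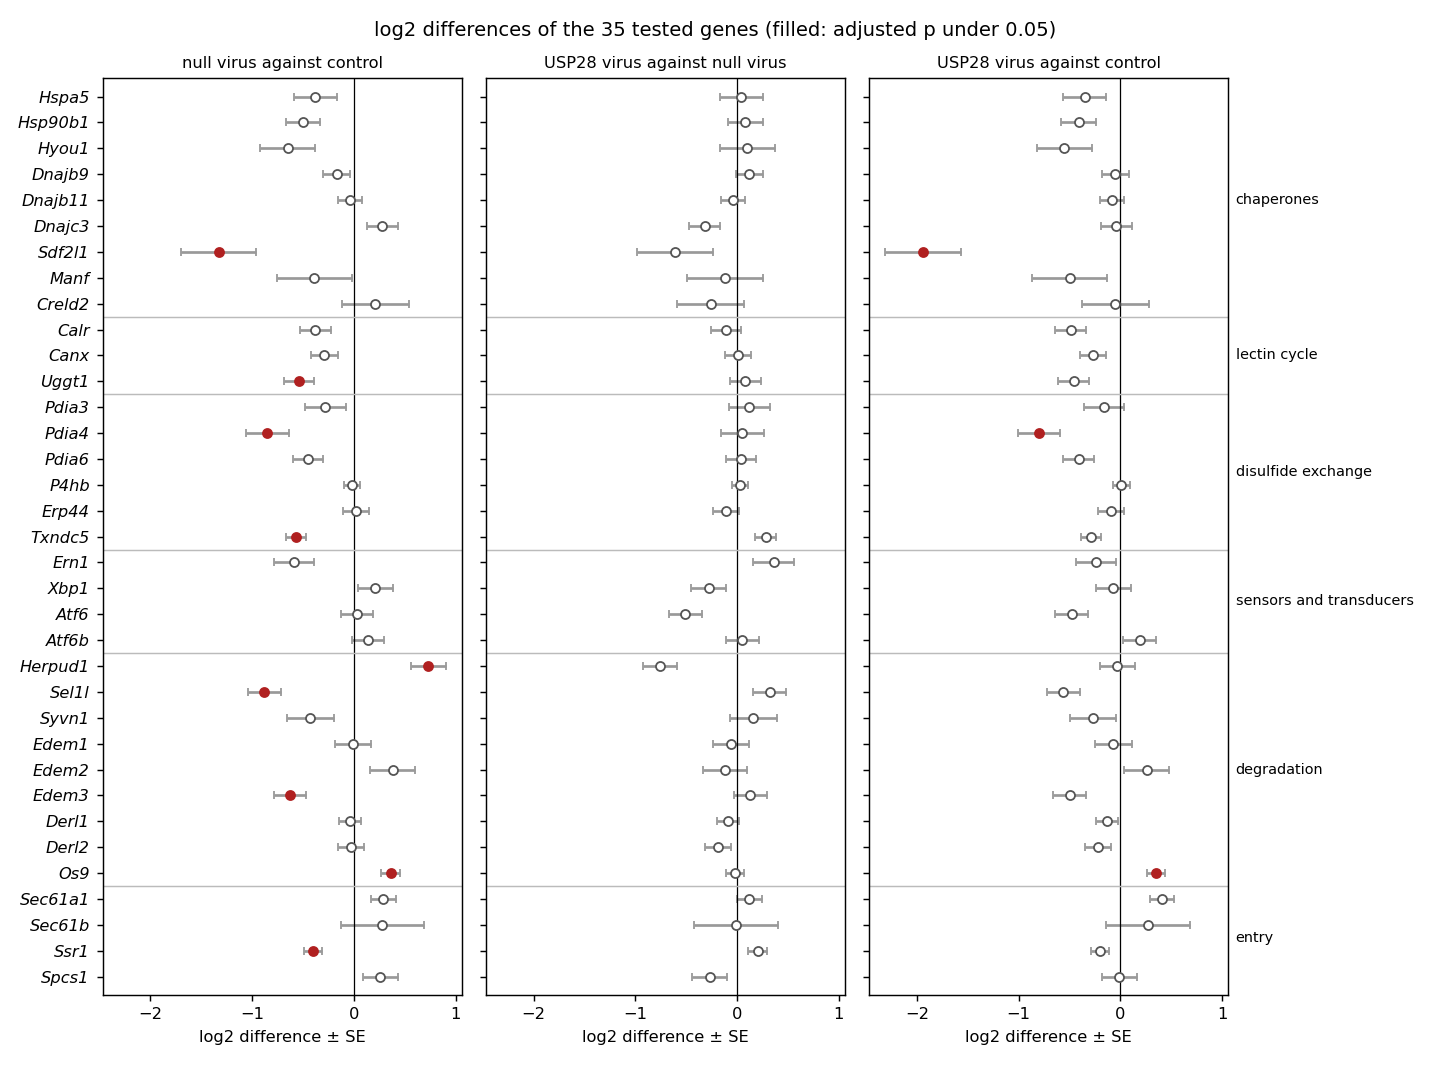
log2 difference ± SE of the 35 tested genes in each of the 3 comparisons, on 1 common horizontal scale, ordered by role. Filled red points passed an adjusted p of 0.05 in limma. Null virus against control has 9 such points, USP28 virus against null virus 0, and USP28 virus against control 3, with Sdf2l1 farthest to the left at -1.94.

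Other genes of the pathway were taken from 7 lists set by function, 118 tested genes in all. Of these 4 (Trib3, Asns, Mbtps2 and Kdelr3) passed the filter on low values only through the group where they are highest, and counts for null virus against control are given without them. With null virus 13 of the other 114 were higher and 17 lower than control, 26.3% against 22.4% of all genes. The PERK arm has a kinase that pauses translation and so raises Atf4 and its targets. Of 10 genes of this arm 2 were higher and 0 lower (20% called, against 22.4% of all genes). These were Atf4 itself (log2 0.62) and Ppp1r15a, which restarts translation, at 20.1, 22.5 and 25.4 scaled RPKM in control, 48.4, 34.9 and 39.1 with null virus and 38.9, 36.8 and 34.6 with USP28 virus (log2 0.84). Without null-virus replicate 1 both were called, and without control replicate 3 only Ppp1r15a was. Trib3, a pseudokinase, was at 0.303, 0.288 and 0.351 in control, 1.28, 0.722 and 0.642 with null virus and 0.498, 0.387 and 0.364 with USP28 virus. Asns, asparagine synthetase, was at 0.262, 0.31 and 0.272 in control, 0.924, 0.561 and 0.524 with null virus and 0.454, 0.301 and 0.349 with USP28 virus. Both entered the test through their null-virus values, so their rise is no support for a rise of this arm. The summed level of the whole list, Trib3 and Asns included, was 88.1 to 99.9 scaled RPKM in control. With null virus it was 191.3, 112 and 117.1 in replicates 1, 2 and 3, and with USP28 virus 114 to 124. Of 7 other stress sensors and transducers 0 were higher and 2 lower (28.6% called). The lower ones were Wfs1, a membrane protein of the compartment (log2 -1.24), and Creb3l2 (-0.47). Genes of oligosaccharide transfer and glycan trimming had 0 of 13 higher and 5 lower (38.5% called). These were led by Lman1, a cargo receptor for glycoproteins (log2 -1.09), with Rpn1 (-0.37) and Ganab (-0.35). Of 18 genes of export and retrieval 0 were higher and 4 lower (22.2% called). The lower ones included Sec23a (-0.59) and Sar1b (-0.43), coat proteins of the vesicles that leave the compartment.

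The other lists had calls in both directions, in the comparison where 22.4% of all genes were called. Of 17 translocon and signal peptidase genes 3 were higher and 2 lower (29.4% called). Among them Sec63, the channel partner of BiP, was at log2 0.75, Spcs2 at 0.46 and Spcs3 at -0.35. Of 25 other folding factors 3 were higher and 3 lower (24% called). Tmx2 was at -1.31, the collagen chaperone Serpinh1 at -1.13 and the collagen prolyl isomerase Fkbp10 at 1.03. Of 24 other degradation genes 5 were higher and 1 lower (25% called), with Get4 at 0.86, Aup1 at 0.60 and Selenok at 0.56. With USP28 virus 0 of the 118 passed against null virus in limma or limma voom, where 0.553% and 1.38% of all genes passed. In limma 19 of the 118 had an unadjusted p under 0.05, where 16.7% of all genes had one. Without null-virus replicate 1, 2 higher and 2 lower of 117 passed, where 6.77% of all genes did. Without control replicate 3, 10.5% of all genes passed in null virus against control. Of the 117 pathway genes tested, Trib3 aside, Ppp1r15a, Sec63, Rnf185, Aup1 and Get4 were then higher and Wfs1, Lman1, Tmx2, Serpinh1 and Sar1b lower. Between USP28 virus and control 4 were higher and 6 lower of the 118 (8.47%, against 11.9% of all genes). The higher ones were Ppp1r15a (log2 0.70), Sec63 (0.33), Fkbp10 (1.14) and Qsox1 (0.43), and the lower ones Wfs1 (-1.03), Spcs3 (-0.51), Lman1 (-0.78), Prkcsh (-0.28), Tmx2 (-0.83) and Sar1b (-0.45).

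Markers of other cells differed in the same comparison of null virus with control. Fibroblast markers were lower for 7 of 11 and higher for 1, while their summed level was 221 to 249 scaled RPKM in control against 287 to 326 with null virus and 304 to 344 with USP28 virus, where Gsn (log2 0.76) was the marker that rose. Of 10 endothelial markers 4 were higher and 0 lower (summed 88.8 to 102 against 112 to 139, and 120 to 139 with USP28 virus). Of 10 macrophage markers 3 were lower and 0 higher (82.9 to 109 against 73.7 to 99.5, and 68.6 to 74.7). Mural markers had 1 of 8 higher and 1 lower (216 to 262 against 212 to 272, and 261 to 300). Cardiomyocyte markers had 3 of 10 lower and 0 higher. The shares called were 72.7%, 40%, 30%, 25% and 30% for fibroblast, endothelial, macrophage, mural and cardiomyocyte markers, against 22.4% of all genes. Plasma cells are rich in these chaperones, and the 8 lymphocyte and plasma cell markers summed to at most 1.15 scaled RPKM in any library. The part of these shifts in the values of the 36 genes was not tested.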

How the data were processed

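RNA from 9 left ventricle samples, 3 in each of 3 groups, was sequenced. The authors deposited 1 table of RPKM values per gene. HISAT2, DESeq2 and the human build GRCh38 are named per the submitters' processing notes, with no version, while the gene symbols and coordinates of the table are those of mouse GRCm38: 25445 of 30128 gene spans, and 28 of the 36 listed, are identical to those of GENCODE M21. Per the labels' protocols the libraries were directional; how reads were counted, and with which strand setting, is not stated in the sources used here. The step between low RPKM values gave each library's depth (35970332 to 56497662 reads), and 99.976% of values came out as whole reads within 0.01. The reads of all 36 listed genes did so.

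RPKM values were scaled by an unweighted trimmed mean of M values (30% of ratios and 5% of levels trimmed). The filter kept genes that reached an RPKM of 0.5 in 3 or more libraries, which were 14104 genes and 35 of the 36. A fit with limma 3.58.1 (R 4.3.3; trended, robust prior) was made on log2(scaled RPKM + 0.1) over all 9 libraries in 3 groups. Fold differences are on that scale, which understates those of low genes. P-values were adjusted by Benjamini and Hochberg over all genes kept, with a threshold of 0.05. The fit was tested on simulated data. Alternatives were median-of-ratios scaling, library totals alone, no filter, an RPKM of at least 1, pseudocounts of 1 and 0.01, each pair of groups alone, a replicate block, limma voom on recovered reads and each library left out. Leaving out null-virus replicate 1 and control replicate 3 together was chosen after seeing the data. Replicates of a group differed by more than sampling noise (chi-square per degree of freedom 21.3 to 162).

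Promoter windows came from RefSeq (GRCm38.p6) and were matched by symbol. Windows for Atf6, Derl1, Hyou1, Manf and Sec61a1 were not used here. The listed genes, roles, pathway lists and markers were chosen with earlier results of these data known. Values in every library are given for each listed gene that passed in at least 1 comparison and for Hspa5, Xbp1, Ern1 and Atf6. Other genes shown by library or by a single value among the 36 were chosen after their values were seen. For other genes of the pathway, up to 3 per list and comparison are named, those with the largest absolute log2 difference among the ones that passed. Genes that passed the filter only through the group where they are highest (fewer than 3 other libraries at 0.5 RPKM) were taken out of the pathway counts for null virus against control after seeing the data, and 0 of the 35 tested listed genes were of that kind.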

Additional observations from a re-analysis of the deposited data

How the results depend on the processing

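The number of libraries, 3 a group, limits precision, and Derl3 had 2 to 13 reads a library. Genes passing in null virus against control, 3154, were 2066 with no filter and 1657 with each pair of groups alone. Listed genes higher, 2, were 0 with library totals alone and 1 with a pair alone, and those lower, 7, were 4 with no filter and 2 with a pair alone. With a pair alone only Herpud1, Sel1l and Txndc5 kept their calls in this comparison. Members called were 20% with library totals alone, 16.7% with no filter and 8.57% with a pair alone. Of all genes 17.2%, 6.86% and 11.7% were called in these fits. In USP28 virus against null virus, 78 genes became 31 with library totals, 10 with no filter, 0 with a pair alone (1827 at an unadjusted p under 0.05 in limma), 195 with limma voom and 679 without null-virus replicate 1 and control replicate 3. Listed genes lower, 0, became 1 with limma voom (2.86%, against 1.38% of all genes) and 2 without those libraries (5.71%, against 4.9%). In USP28 virus against control, 1682 genes became 921 with library totals, 944 with no filter, 3882 with a pair alone and 2810 without the 2 libraries. Listed genes higher, 1, became 0 with library totals, no filter or the block, and 2 with a pair alone or limma voom. Those lower, 2, became 1 with library totals, no filter or the block, 8 with a pair alone, 6 with limma voom and 8 without the 2 libraries. Members called were 2.86%, 2.78% and 2.86% with library totals, no filter and the block. Of all genes 6.53%, 3.13% and 9.12% were called there. With a pair alone, limma voom and without the 2 libraries, members called were 28.6%, 22.9% and 25.7%. The shares of all genes were 27.5%, 16.3% and 20.3%.

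With the replicate number as a block, 0 genes passed in USP28 virus against null virus (2330 at an unadjusted p under 0.05 in limma). Same-numbered libraries had correlations of -0.029 to 0.06 in their deviations from group means, so the numbers do not pair them.

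With 1 library left out at a time, genes passing ran from 1441 to 4473 in null virus against control, 0 to 948 in USP28 virus against null virus and 368 to 4121 in USP28 virus against control, each highest without null-virus replicate 1. Listed genes higher ran from 0 to 2, 0 to 0 and 0 to 2 in these comparisons, and those lower from 3 to 11, 0 to 2 and 0 to 9. 

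No member that passed reversed its sign in the comparison in which it passed. Signs of small differences that did not pass turned. Library totals alone gave 0.03 for Herpud1 in USP28 virus against control, 0.07 for Os9 in USP28 virus against null virus and -0.01 for Erp44 in null virus against control. With 1 library left out, or both named above, USP28 virus against null virus ran from -0.04 to 0.15 for Hspa5, -0.02 to 0.11 for Pdia4, -0.08 to 0.23 for Edem3, -0.05 to 0.01 for Os9 and -0.08 to 0.17 for Uggt1. USP28 virus against control ran from -0.27 to 0.10 for Xbp1 and -0.15 to 0.06 for Herpud1, which was at 0.02 without both. Null virus against control ran from -0.07 to 0.27 for Atf6, -0.14 to 0.06 for Dnajb11, -0.05 to 0.01 for P4hb, -0.75 to 0.06 for Manf, -0.20 to 0.55 for Creld2, -0.17 to 0.10 for Edem1 (0.08 without both), -0.12 to 0.01 for Derl1, -0.11 to 0.04 for Derl2, -0.15 to 0.58 for Sec61b and -0.11 to 0.11 for Erp44 (-0.08 without both). The cause of these changes was not tested.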
